A study of Mus musculus with 3 samples.

Results

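Natural killer (NK) cells with little granzyme C RNA are described here in melanomas of mice that had received tumour-specific T cells. They were picked from single-cell RNA counts. A barcode was kept if it held at least 1500 unique molecular identifiers (UMIs, each marking 1 captured RNA molecule), with under 10% of them mitochondrial. It then needed at least 2 UMIs over Ncr1 and Klrb1c, none of Cd3d, Cd3e, Cd8b1 or Csf1r, and under 5 of Gzmc. This gave 664 cells of 10243 barcodes: 183 cells at day 3, 350 at day 7 and 131 at day 14. The same genes chose the cells, so their levels are a description and no test was made on them.

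C57BL/6 mice had carried B16F10 melanoma, a pigmented skin tumour line, under the skin for 9 days when they were given Pmel-1 cytotoxic T lymphocytes (CTL) into a vein; Pmel-1 T cells carry a transgenic receptor for a melanocyte protein. Tumours were taken 3, 7 and 14 days after this transfer, and all 3 groups shared the tumour, the strain and the CTL. For each day, equal numbers of CD45+ cells of 3 mice were pooled into 1 droplet library with a 3' version 3.1 kit. The labels name both a cell sorter and magnetic beads for the CD45+ step, and their cell type field holds the strain. Each day is therefore 1 library of pooled animals: no p-value could be had, and each 95% interval below covers the error of counting alone. Intervals of CPM and of ratios of CPM count UMIs and leave out the spread between cells. The day is confounded with tumour age and with the library, so these cannot be told apart, and tumours without transferred cells were not analysed here. CD8 T cells, the comparison population, were barcodes with at least 1 UMI over Cd3d, Cd3e and Cd3g and at least 2 over Cd8a and Cd8b1. This gave 421, 515 and 439 cells at days 3, 7 and 14, and none was also an NK cell. The gate does not tell transferred CTL from the mice's own CD8 T cells. Their mix may differ between days and was not measured here, so CD8 T levels by day and NK over CD8 T ratios are of the mix.

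NK cells are innate lymphocytes that kill without a rearranged antigen receptor. They weigh signals from activating receptors, such as NKp46 (encoded by Ncr1), against inhibitory ones that read MHC class I on the target, among them many members of the Ly49 family (Klra genes). Killing is carried by granules that hold perforin and granzymes, and NK cells also secrete interferon-gamma and chemokines that draw other leukocytes into tumours. Mouse NK cells mature by gaining CD11b (Itgam) and losing CD27.

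The label fitted the RNA. NKp46 RNA (Ncr1) stood at 493, 530 and 526 counts per 1000000 UMIs (CPM) at days 3, 7 and 14, where the UMIs of all NK cells of a library were summed. NK1.1 RNA (Klrb1c), used by the rule like Ncr1, was at 611, 589 and 589 CPM. The next markers were not used by the rule. Klre1, a receptor of the NK lectin family, was at 735, 714 and 711 CPM in NK cells and at 49.8, 69.5 and 40.8 CPM in CD8 T cells. Eomes, a transcription factor of conventional NK cells, was at 322, 255 and 285 CPM in NK cells and at 38.2, 34.1 and 34.0 CPM in CD8 T cells. T-bet (Tbx21), its relative, was at 120, 143 and 127 CPM in NK cells. Markers of innate lymphoid cells of types 2 and 3 gave 1, 6 and 0 UMIs in all NK cells over 7 genes, and the 5 melanoma markers gave none on any day. Of the 2 matched gamma-delta T cell markers Sox13 had no UMI, but Trdc, the constant part of the delta chain, was at 86.3, 80.1 and 58.4 CPM in NK cells and at 10.3, 25.3 and 26.8 CPM in CD8 T cells. A Trdc UMI was present in 28.4%, 35.4% and 24.4% of NK cells, and after thinning each cell to 1500 UMIs in 12.02%, 9.71% and 11.5%, against 0.298%, 0.221% and 0.164% of thinned monocytes and macrophages. The barcodes were not picked with Trdc, and they are called NK cells by the rule.

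T cell receptor RNA was not absent from these cells. A UMI of Trbc1 or Trbc2, the constant parts of the receptor's beta chain, was present in 97.8%, 98.3% and 97.7% of NK cells at days 3, 7 and 14. The 2 genes are near-identical, so reads may be split between them. Trbc1 was at 813, 894 and 779 CPM in NK cells, close to 1057, 1195 and 897 CPM in CD8 T cells, while Trbc2 was at 351, 311 and 281 CPM in NK cells, against 5015, 8651 and 8567 CPM in CD8 T cells. Trac, the alpha chain, was at 24.7, 36.1 and 25.2 CPM in NK cells and at 604, 747 and 549 CPM in CD8 T cells. With Cd3g, Trac, Cd8a and Cd4 also required to be at 0, 154, 261 and 106 NK cells remained.

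Depth and other cells' RNA set limits. NK cells held 973109, 2134417 and 753389 UMIs at days 3, 7 and 14, with medians of 4785, 5679 and 5341 UMIs a cell, against medians of 17173, 13536 and 11727 in CD8 T cells. Lyz2, a macrophage gene, had a UMI in 29.0%, 24.9% and 24.4% of NK cells and in 58.4%, 43.7% and 47.6% of CD8 T cells. The 14 monocyte and macrophage markers summed to 327, 298 and 228 CPM in NK cells, with Csf1r at 0 by the rule, against 17615, 18619 and 16463 CPM in monocytes and macrophages (Csf1r at least 1 UMI, Lyz2 at least 5). The exclusion genes removed 68, 106 and 65 cells that had met the receptor minimum, whose median of 6998, 7771 and 7377 UMIs lay above that of the kept cells. Of the kept cells 28, 32 and 12 sat at exactly 2 receptor UMIs, and 22, 20 and 13 otherwise eligible cells sat just outside at 1. Gzmc was at 0 in 156, 318 and 118 NK cells and at 3 or 4 in 6, 3 and 3, while 2, 9 and 1 cells fell just outside with 5 to 8 UMIs. No NK barcode at day 3, and 1 each at days 7 and 14, occurred in another library, against 80, 88 and 40 CD8 T barcodes.

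NK cells were most frequent at day 7. They made up 6.73% of barcodes passing the filters at day 3 (183 of 2719, exact Clopper-Pearson interval 5.82 to 7.74%). At day 7 they were 13.6% (350 of 2577, interval 12.3 to 15.0%), and at day 14 they were 4.61% (131 of 2843, interval 3.87 to 5.44%). The share at day 7 was 2.02 times that at day 3 (1.70 to 2.39), and the share at day 14 was 0.339 times that at day 7 (0.280 to 0.412). Day 14 also lay below day 3, at 0.685 times its share (0.550 to 0.851). CD8 T cells moved less: they were 15.5%, 19.98% and 15.4% of barcodes at days 3, 7 and 14, and their share at day 7 was 1.29 times that at day 3 (1.15 to 1.45). As a share of NK and T cells alone, NK cells were 18.1%, 25.6% and 10.9%, in the same order of days. Shares depend on all other cells of the pool, and the spread between mice is not in these intervals.

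**Figure D1:**
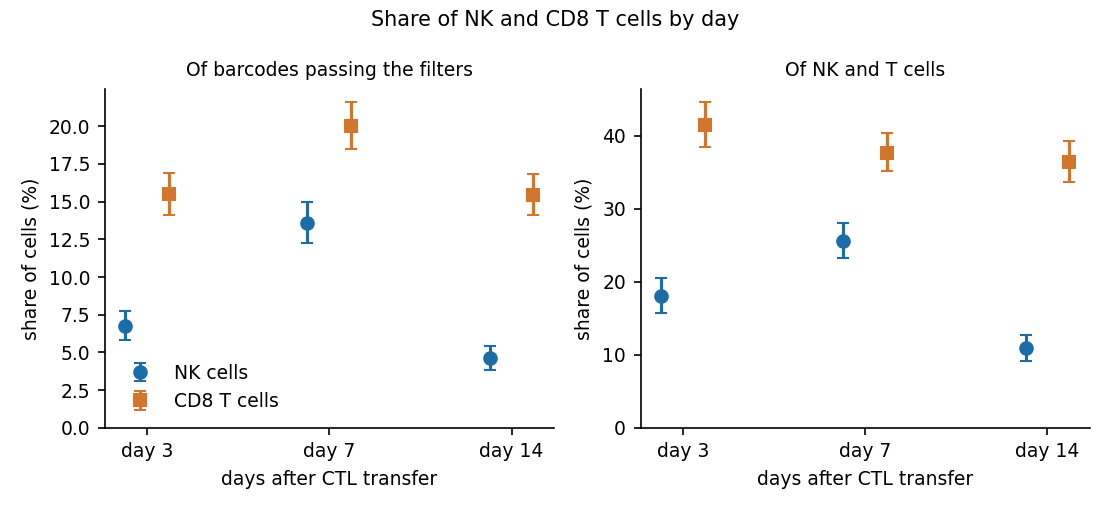
Share of NK cells (circles) and CD8 T cells (squares) at days 3, 7 and 14 after transfer, in percent of barcodes passing the filters (left) and of NK and T cells (right); bars are exact 95% binomial intervals. The NK share is highest at day 7 with both denominators, 13.6% and 25.6%.

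Of the 3 main killing genes of NK cells, Gzma and Prf1 passed 1.5-fold in no comparison of days, and Gzmb was lower at days 7 and 14 than at day 3. Granzyme A (Gzma), a granule protease, was at 7471, 7181 and 6461 CPM at days 3, 7 and 14. Perforin (Prf1), which forms pores in target membranes, was at 1081, 912 and 930 CPM. Granzyme B (Gzmb), the protease that activates caspases in the target, was highest at day 3, at 1975 CPM, against 1222 at day 7 and 1035 at day 14. Its ratio was 0.619 for day 7 over day 3 (0.583 to 0.657) and 0.524 for day 14 over day 3 (0.482 to 0.570). Fas ligand (Fasl), a death receptor ligand, was at 142, 200 and 151 CPM. Of other granzyme genes linked to Gzmc, Gzmd and Gzmg had no UMI on any day. Gzme and Gzmf had 2 and 1 UMIs in all, both at day 7. The cells were picked for little Gzmc, so these low counts describe the rule as well as the cells. A count of 0 allows up to 3.08, 1.41 and 3.98 CPM in NK cells at days 3, 7 and 14 (3 counts of each sum).

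The promoters of Ncr1 and of the 3 main killing genes are shown because these genes define what the cells are and do. Each line gives the 250 bases before the start of the RefSeq gene (GRCm38.p6, the same coordinates as mm10), read 5′ to 3′ on the gene's strand. Capitals mark TGTGGTT, the core bound by RUNX factors, or AGGAAGT, a core bound by ETS factors, on either strand (AACCACA and ACTTCCT on the reverse), and no 2 matches overlap.
Ncr1 (chr7:4337465-4337714, plus strand): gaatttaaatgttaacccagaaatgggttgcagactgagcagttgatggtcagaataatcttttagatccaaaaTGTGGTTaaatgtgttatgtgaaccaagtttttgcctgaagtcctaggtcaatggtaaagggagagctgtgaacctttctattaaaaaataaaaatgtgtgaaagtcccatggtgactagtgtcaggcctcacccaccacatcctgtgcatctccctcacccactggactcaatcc
Gzma (chr13:113100982-113101231, minus strand): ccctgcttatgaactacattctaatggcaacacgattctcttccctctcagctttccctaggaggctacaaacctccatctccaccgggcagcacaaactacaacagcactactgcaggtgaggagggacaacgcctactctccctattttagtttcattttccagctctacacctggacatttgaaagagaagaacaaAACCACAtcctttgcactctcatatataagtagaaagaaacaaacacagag
Gzmb (chr14:56262335-56262584, minus strand): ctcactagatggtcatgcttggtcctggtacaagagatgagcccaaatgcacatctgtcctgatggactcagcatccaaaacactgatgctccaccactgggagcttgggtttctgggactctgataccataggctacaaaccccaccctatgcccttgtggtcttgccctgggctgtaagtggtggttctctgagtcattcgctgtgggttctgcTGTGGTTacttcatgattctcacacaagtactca
Prf1 (chr10:61297586-61297835, plus strand): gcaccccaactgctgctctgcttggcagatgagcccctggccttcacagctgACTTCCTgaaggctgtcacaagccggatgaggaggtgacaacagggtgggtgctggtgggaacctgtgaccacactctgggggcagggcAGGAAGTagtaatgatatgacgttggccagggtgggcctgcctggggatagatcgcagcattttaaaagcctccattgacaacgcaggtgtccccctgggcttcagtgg
The RUNX letters stood in 4.40% of all 32851 windows and in 4.41% of the windows of genes at least 2-fold higher in NK than in CD8 T cells in all 3 libraries; the ETS letters stood in 7.69% of all windows, 10.9% of those of genes higher in NK cells and 10.7% of those of genes lower in NK cells. Another sequence searched, GGTGTGA of T-box factors such as T-bet and Eomes, stood in 3.33% of all windows and 1.68% of those of genes higher in NK cells. A match is a string of letters and not a shown site. Runx3, an NK and T cell RUNX factor, was at 537, 521 and 461 CPM in NK cells and at 232, 257 and 201 CPM in CD8 T cells.

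Genes were counted as higher or lower between days when the ratio of CPM was at least 1.5-fold and its exact interval left out 1, a rule of size within these libraries. For day 7 over day 3, 222 of 8171 genes with at least 20 UMIs were higher (2.72%) and 297 lower (3.63%). For day 14 over day 7, 137 of 7982 were higher (1.72%) and 385 lower (4.82%). For day 14 over day 3, 136 of 6787 were higher (2.0%) and 413 lower (6.09%). Ribosomal protein genes took 22.7%, 25.5% and 27.7% of NK UMIs at days 3, 7 and 14, and the median gene moved by -0.01, -0.08 and -0.11 on the log2 scale in those 3 comparisons. Higher genes were 42.8%, 26.2% and 24.8% of all that passed in the 3 comparisons. With TMM scaling, which sets most genes near no change, they were 52.6%, 37.2% and 43.8% (275 higher and 248 lower, 173 and 292, 216 and 277). With CPM taken outside mitochondrial and ribosomal genes they were 55.1%, 34.2% and 44.1%. Of 5 measured granzyme and perforin genes Gzmb alone passed for day 7 over day 3, none passed for day 14 over day 7, and Gzmb alone of 4 passed for day 14 over day 3. Of 14 other genes of the cytotoxic machinery none passed for day 7 over day 3 and 2 were lower at day 14 than at day 7. These were Serpinb9, an inhibitor of granzyme B, at 780, 903 and 547 CPM at days 3, 7 and 14, and Stx11, a protein of granule release, at 53.4, 49.2 and 30.5 CPM.

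**Figure D2:**
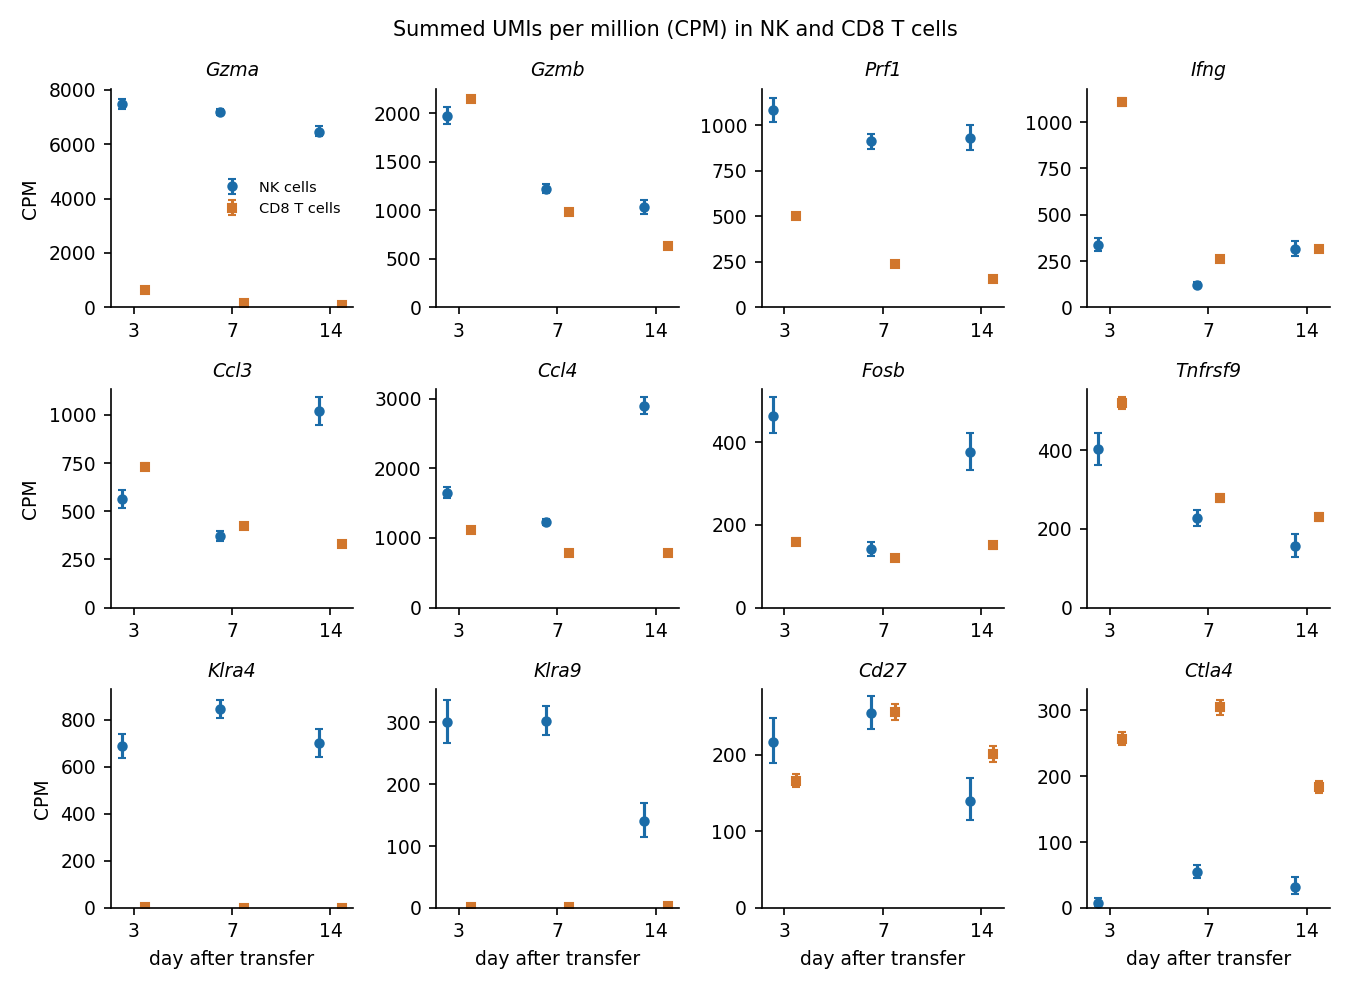
Summed UMIs as CPM (linear axes from 0) of 12 genes at days 3, 7 and 14 in NK cells (circles) and CD8 T cells (squares); bars are exact 95% Poisson intervals. In NK cells Gzmb is highest at day 3, Ifng, Ccl4 and Fosb are lowest at day 7, and Klra9 and Cd27 are lowest at day 14.

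Interferon-gamma RNA was lowest at day 7. Interferon-gamma (Ifng) was at 338 CPM at day 3, 123 at day 7 and 316 at day 14 in NK cells. Its ratio was 0.364 for day 7 over day 3 (0.309 to 0.430) and 2.56 for day 14 over day 7 (2.14 to 3.07). In CD8 T cells Ifng was at 1106, 262 and 317 CPM, so it was lower at day 7 there too, while its ratio for day 14 over day 7 was 1.21 (1.14 to 1.28). These CD8 T values are of all cells in the gate. With the stricter CD8 T gate given below the NK over CD8 T ratios of Ifng differed, and ratios between days were not taken. How far the contrast in Ifng between the cell types depends on the gate was therefore not tested. The share of NK cells with an Ifng UMI, after each cell was thinned to 1500 UMIs, was 37.7%, 14.9% and 27.5% at days 3, 7 and 14, against 1.57%, 0.553% and 0.574% of monocytes and macrophages thinned alike. Lymphotactin (Xcl1), which attracts dendritic cells, was at 1551, 1034 and 1118 CPM, and its ratio for day 7 over day 3 of 0.667, 0.624 to 0.712, did not pass the size rule. Of 10 measured secreted factors 3 were lower at day 7 than at day 3 and none higher (median log2 ratio -0.37), and of 9 measured for day 14 over day 7 3 were higher and 1 lower (median 0.13). Over all genes 3.63% were lower at day 7 than at day 3, and 1.72% were higher and 4.82% lower at day 14 than at day 7.

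The chemokines Ccl3 and Ccl4, which attract myeloid and T cells, were highest at day 14. Ccl3 was at 561, 373 and 1019 CPM in NK cells at days 3, 7 and 14, and Ccl4 at 1651, 1228 and 2896 CPM. The ratio of Ccl3 was 2.73 for day 14 over day 7 (2.47 to 3.02) and 1.82 for day 14 over day 3 (1.63 to 2.03); that of Ccl4 was 2.36 (2.23 to 2.50) and 1.75 (1.64 to 1.87). Over all CD8 T cells Ccl3 was at 731, 424 and 330 CPM and Ccl4 at 1109, 778 and 778 CPM, highest at day 3. That order was not checked with the stricter CD8 T gate given below. A few NK cells carried much of the chemokine RNA: 285 of the 2182 Ccl4 UMIs at day 14 were in 1 of the 131 NK cells, and the log2 ratio for day 14 over day 7 was 1.12 without the top cell of each library. Ccl3 had a UMI in 33.4%, 26.6% and 29.9% of thinned monocytes and macrophages, against 29.5%, 20% and 29.8% of thinned NK cells; in NK cells with under 2 UMIs over 9 myeloid genes (Lyz2, Apoe, Cd74 and others), a subset chosen after the data were seen, the log2 ratio of Ccl3 was 1.35 for day 14 over day 7. Ccl5, a T cell attractant, was the most abundant of the secreted factors at 10747, 8952 and 9786 CPM and passed 1.5-fold in no comparison.

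Some early response genes, which cells switch on soon after a stimulus, were lowest at day 7, among them Fosb, Fos, Jun and Cd69. Of 21 measured early response genes 7 were lower and 1 higher at day 7 than at day 3, and 4 were higher and 2 lower at day 14 than at day 7. Their median log2 ratios were -0.23 and -0.16. Over all genes 3.63% were lower and 2.72% higher at day 7 than at day 3. For day 14 over day 7 the shares were 1.72% higher and 4.82% lower. Fosb, a subunit of the AP-1 transcription factor, was at 463, 141 and 376 CPM (ratio 0.304 for day 7 over day 3, 0.262 to 0.353, and 2.66 for day 14 over day 7, 2.26 to 3.14). Fos was at 531, 257 and 484 CPM and Jun at 654, 381 and 689 CPM, both lowest at day 7. Cd69, an early activation antigen that retains cells in tissue, was at 198, 119 and 283 CPM and was 2.38 times as high at day 14 as at day 7 (1.98 to 2.87). Tnfrsf9 (4-1BB), a costimulatory receptor, did not recover: it stood at 402, 228 and 157 CPM (0.390 for day 14 over day 3, 0.315 to 0.480). In CD8 T cells Fosb was at 159, 120 and 151 CPM and Fos at 168, 133 and 232 CPM.

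Most receptors of the NK lectin family did not pass the size rule between days. Of 13 measured killer lectin and Ly49 genes 1 was higher and 2 lower at day 7 than at day 3, and 1 of 12 was lower at day 14 than at day 7. The medians were -0.04 in both. Over all genes 2.72% were higher and 3.63% lower at day 7 than at day 3, and 4.82% were lower at day 14 than at day 7. Ly49 genes are close copies of each other, so reads may be split between them and their levels are uncertain. Klra4 (Ly49D), an activating member, was at 686, 844 and 700 CPM at days 3, 7 and 14. Klra8 (Ly49H), the activating receptor for a mouse cytomegalovirus protein, was at 557, 469 and 568 CPM. Klra9 (Ly49I), an inhibitory member, was the one that fell at day 14: it was at 300, 302 and 141 CPM, with a ratio of 0.466 for day 14 over day 7 (0.376 to 0.573). Klra1 (Ly49A), also inhibitory, was at 153, 86.7 and 111 CPM and was lower at day 7 than at day 3 (0.566, 0.454 to 0.707).

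Single NK cells showed a part of the Ly49 set at a time. After thinning to 1500 UMIs, 16.9%, 16.6% and 23.7% of NK cells at days 3, 7 and 14 had no UMI of Klra1, Klra3, Klra4, Klra7, Klra8 or Klra9, and 74.9%, 77.7% and 71.8% had 1 to 3 of the 6. Without thinning the cells with none were 7.65%, 6.57% and 15.3%. A cell without a UMI may still express the gene, so these shares describe captured RNA.

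**Figure D3:**
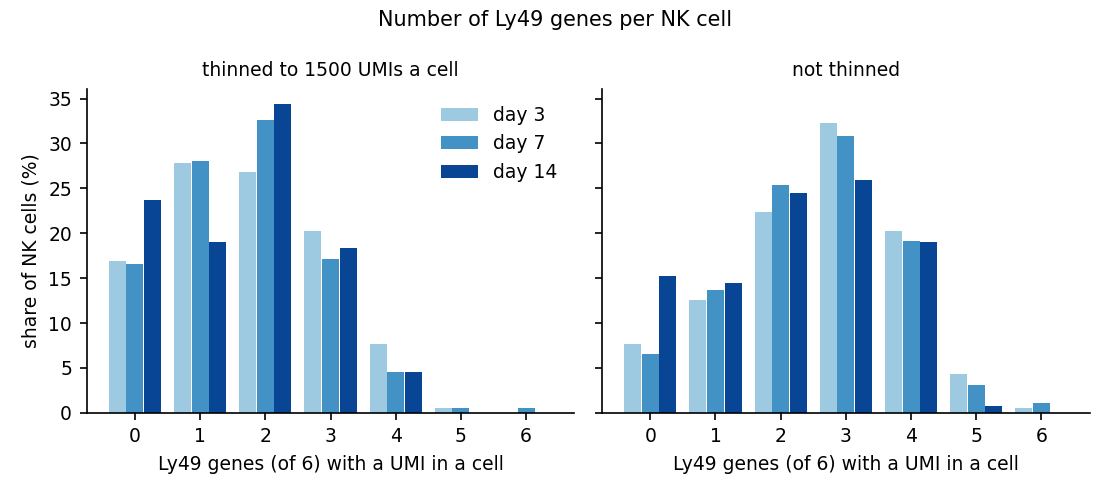
Share of NK cells (percent, from 0) by the number of 6 Ly49 genes with a UMI, at days 3, 7 and 14, with cells thinned to 1500 UMIs (left) and not thinned (right). Most cells have 1 to 3 of the 6 genes on each day, and cells with none are 16.9%, 16.6% and 23.7% after thinning.

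A few maturation genes moved between days. Of 12 early-stage NK genes 3 were higher at day 7 than at day 3 and none lower: Cd7, an immunoglobulin-family surface protein, at 188, 349 and 309 CPM, Tcf7, the TCF-1 transcription factor, at 113, 188 and 165 CPM, and Kit, a growth factor receptor, at 19.5, 33.3 and 19.9 CPM over the 3 days. Over all genes 2.72% were higher and 3.63% lower in that comparison. Cd27, a costimulatory receptor of less mature cells, was at 217, 254 and 139 CPM, with a ratio of 0.548 for day 14 over day 7 (0.440 to 0.676). The share of thinned NK cells with a Cd27 UMI was 21.9%, 29.4% and 14.5%, against 1.27%, 0.773% and 0.738% of thinned monocytes and macrophages. Itgam was at 69.9, 57.6 and 78.3 CPM, with overlapping intervals. Il7r, the interleukin-7 receptor that marks precursors and innate lymphoid cells of type 1, was low but 3.59 times as high at day 14 as at day 7 (2.17 to 6.00), at 8.22, 14.1 and 50.4 CPM. Of 17 measured genes of type 1 innate lymphoid cells and tissue residence 6 were higher and 1 lower at day 14 than at day 7 (median 0.45), among them Krt83 at 9.25, 17.3 and 39.8 CPM, Tmem176b at 13.4, 15.0 and 30.5 CPM, and Cd69 and Il7r as above. In NK cells with under 2 myeloid UMIs that median was 0.09. Over all genes 1.72% were higher and 4.82% lower at day 14 than at day 7.

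Part of the interferon response genes was lower at day 14 than at day 3. The type I interferon list had 5 of its 10 measured genes lower at day 14 than at day 3 and none higher (median log2 ratio -0.84), and the interferon-gamma list had 7 of 16 lower and none higher (median -0.54), against 6.09% of all genes lower and an all-gene median of -0.11. Bst2, which tethers budding viruses, was at 78.1, 51.5 and 31.9 CPM at days 3, 7 and 14. Gbp2, a guanylate-binding protein of cell defence, was at 76.0, 44.5 and 30.5 CPM. RNA of myeloid cells fell alongside: Lyz2 in NK cells was at 134, 80.1 and 47.8 CPM. In NK cells with under 2 myeloid UMIs the interferon-gamma median was -0.21. Socs1, which restrains interferon signalling, was at 102, 109 and 63.7 CPM, lower at day 14 than at day 7 (0.584, 0.418 to 0.799).

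Single cells made some of the largest ratios. The inducible heat shock genes Hspa1a and Hspa1b, near-identical copies whose reads may be split, had the highest ratios of day 7 over day 3, at 3.08, 80.1 and 23.9 CPM and at 3.08, 67.0 and 6.64 CPM at days 3, 7 and 14. At day 7 the 171 UMIs of Hspa1a lay in 6 of 350 cells, 106 of them in 1 cell, and the 143 of Hspa1b in 7 cells, 87 of them in 1. Cxcl10, a chemokine induced by interferon-gamma, was at 95.6, 106 and 14.6 CPM, and 131 of its 226 UMIs at day 7 were in 1 cell. Ctla4, an inhibitory receptor of T cells, was spread more widely: it was at 7.19, 54.4 and 31.9 CPM, and its 116 UMIs at day 7 lay in 59 cells. Of 8 measured inhibitory checkpoint receptors 1, Ctla4, was higher and 3 were lower at day 7 than at day 3, against 2.72% and 3.63% of all genes. Vegfa, an angiogenic factor, was at 204, 200 and 107 CPM, 0.537 times as high at day 14 as at day 7 (0.418 to 0.683). Bim (Bcl2l11), which promotes apoptosis, was at 304, 378 and 211 CPM, 0.559 times as high at day 14 as at day 7 (0.469 to 0.663).

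NK cells and CD8 T cells of the same tumours differed first in the NK receptors, and also in division. At least 2-fold in all 3 libraries, 454 of 9892 genes were higher in NK cells (4.59%) and 662 lower (6.69%), which is a description because the gates used T cell and NK genes. With CD8 T cells of under 20000 UMIs, no Csf1r UMI and under 2 Lyz2 UMIs, chosen after the data were seen, the counts were 251 and 210. Klra4 was 273, 1930 and 1118 times as high in NK as in CD8 T cells at days 3, 7 and 14, where the CD8 T level was 2.51, 0.438 and 0.626 CPM. Klrb1a, another NK lectin, was at 135, 127 and 105 CPM in NK cells and at 0.109, 0.656 and 0.125 CPM in CD8 T cells. Carbonic anhydrase 2 (Car2), a cytosolic enzyme, was at 354, 306 and 373 CPM in NK cells and at 3.93, 3.72 and 3.00 CPM in CD8 T cells. Chymase (Cma1), a serine protease, was at 50.4, 39.4 and 62.4 CPM in NK cells and at 0.218, 0.109 and 0 CPM in CD8 T cells, so at day 14 it was at least 166-fold higher, with 3 UMIs taken for the CD8 T library.

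**Figure D4:**
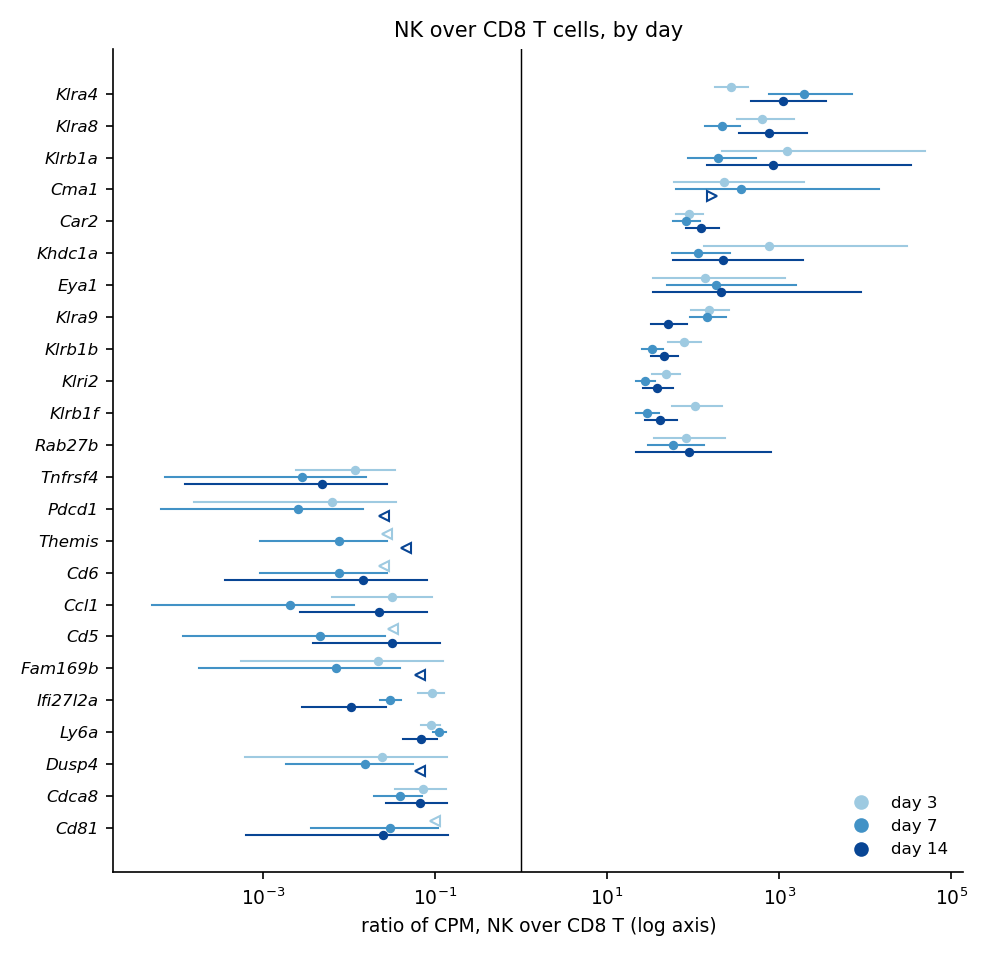
Ratio of CPM in NK over CD8 T cells (log axis) at days 3, 7 and 14 for the 12 highest and 12 lowest genes by the fixed rule, with exact 95% intervals; open arrowheads mark a ratio bounded with 3 UMIs where 1 group had none. The highest are mostly NK lectins, with Klra4 at 273, 1930 and 1118, and the lowest include the T cell genes Pdcd1, Cd5 and Cd6.

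Genes of the NK receptor cluster stood together on 1 chromosome. Between Klrb1a and Klra1, at chr6:128609227-130386874 of mm10, lie 50 genes, of which 24 were measured. Of these 24, 15 were at least 2-fold higher in NK cells in all 3 libraries, against 4.59% of all genes, and none was lower. The share is a description and no test. Klrb1a and Klra1, which bound the stretch, are among the 15. Some of the 15, such as Klrb1a, reached the UMI minimum only through NK cells. Positions come from GENCODE M21, in which 99.6% of the files' gene identifiers were found. Among the 15 were Klrb1c, which the rule used, Klre1 and Klrd1 (CD94), Klrk1 (NKG2D) and Klri2, and 6 Ly49 genes. Cd69 and Klrc1 (NKG2A), which lie in the same stretch, were not among them: Klrc1 was at 264, 230 and 219 CPM in NK cells and at 140, 207 and 94.3 CPM in CD8 T cells.

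The T cell side of the contrast held checkpoint and costimulatory receptors and the cell cycle. PD-1 (Pdcd1) was at 1.03, 0.468 and 0 CPM in NK cells, 1 UMI or none in each library, against 162, 181 and 156 CPM in CD8 T cells. Lag3, another inhibitory receptor, was at 4.11, 5.15 and 3.98 CPM in NK cells and at 88.2, 150 and 74.8 CPM in CD8 T cells, and Tim-3 (Havcr2) at 1.03, 0.468 and 0 CPM in NK cells and at 58.8, 48.3 and 28.4 CPM in CD8 T cells. Tnfrsf4 (OX40), a costimulatory receptor, was at 3.08, 0.468 and 1.33 CPM in NK cells and at 260, 163 and 269 CPM in CD8 T cells. Of 22 cell cycle genes 21, 22 and 22 were at least 2-fold lower in NK cells at days 3, 7 and 14 and none higher. Of all genes 6.69% were lower in all 3 libraries together, a stricter count than 1 for each day. Cells with at least 2 UMIs over 8 proliferation genes were 6.01%, 4.57% and 3.82% of NK cells and 53.9%, 45.6% and 47.2% of CD8 T cells; after thinning to 1500 UMIs they were 1.64%, 1.14% and 0% of NK cells and 26.8%, 20% and 21.2% of CD8 T cells. For day 14, the 0 of 131 thinned cells allows up to 2.29% of cells with such UMIs (3 counts of the total), and the exact upper bound was 2.78%. The low shares hold for the NK cells kept by the rule. Among NK cells left out for at least 5 Gzmc UMIs, 1 of 6, 8 of 32 and 11 of 18 met the same minimum at days 3, 7 and 14. Those cells were deeper, and these counts are without thinning.

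Gzma and Prf1 were higher in NK cells than in CD8 T cells on each day. Over all CD8 T cells the levels of Gzma, Prf1 and Gzmb were lower at each later day. That order was not checked in the stricter CD8 T cells, and the Gzma ratio against them did not rise from day 7 to day 14. Other granzymes ran the other way: Gzmk was at 9.25, 14.5 and 18.6 CPM in NK cells at days 3, 7 and 14 and at 92.8, 92.5 and 49.3 CPM in CD8 T cells. Of the granzymes linked to Gzmc 3 of 4, 3 of 3 and 2 of 3 measured were at least 2-fold lower in NK cells on those days. Of all genes 6.69% were lower in all 3 libraries together, a stricter count, and the rule on Gzmc itself bears on these granzymes. Prf1 was 2.15, 3.79 and 5.98 times as high in NK cells as in CD8 T cells at days 3, 7 and 14 (intervals 2.01 to 2.31, 3.57 to 4.03 and 5.45 to 6.57), with CD8 T levels of 502, 240 and 155 CPM. Gzma was 11.8, 41.1 and 82.6 times as high, with CD8 T levels of 631, 175 and 78.2 CPM; against the stricter CD8 T cells it was 5.60, 28.2 and 23.3 times as high. Gzmb was near parity at day 3, at 0.923 times the CD8 T level (0.880 to 0.967), and at 1.25 and 1.64 times at days 7 and 14, while against the stricter CD8 T cells its ratios were 1.16, 1.59 and 1.79. Ifng leaned the other way at first, at 0.306 and 0.469 times the CD8 T level at days 3 and 7 and 0.996 times at day 14; against the stricter cells it was 0.673, 0.571 and 0.815. The direction of Ccl3 turned with the CD8 T gate, at 0.768, 0.880 and 3.09 against all CD8 T cells and at 1.90, 1.39 and 2.58 against the stricter ones.

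Within the NK cells several effector genes were among those that varied most from cell to cell. Ranked by the lowest of the 3 days' variance over mean in cells thinned to 1500 UMIs, Ccl4, Ccl5 and Gzma led, and Gzmb, Ccl3 and Xcl1 were among the first 9 together with Malat1, Actb and Tmsb4x, which are abundant in most cells, while Prf1 ranked 24; this ranking was made after the data were seen. Ccl4 had a variance of 12.2, 11.8 and 20.5 times its mean at days 3, 7 and 14, Gzma of 8.57, 10.3 and 12.3 times and Gzmb of 5.40, 7.51 and 6.88 times. The median of 3057 genes was 1.03, 1.02 and 1.01, close to the value of 1 that random sampling gives. Among receptors Klra4 ranked highest, at 2.70, 3.12 and 2.87.

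Some of these effector genes also differed between NK cells split by maturation markers. How much of the spread goes with the split was not measured. NK cells with an Itgam UMI and no Cd27 UMI (26, 46 and 25 cells at days 3, 7 and 14) were set against those with a Cd27 UMI and no Itgam UMI (79, 184 and 48 cells), a split made after the data were seen. The Itgam cells were 14.2%, 13.1% and 19.1% and the Cd27 cells 43.2%, 52.6% and 36.6% of NK cells, with medians of 4086.5, 5467.5 and 4837 UMIs in the Itgam cells and 5471, 5894 and 5821.5 in the Cd27 cells. Neither UMI was found in 28.4%, 20.6% and 34.4% of NK cells, and a cell without a UMI may still express the gene. At least 1.5-fold in all 3 libraries, 7 of 2883 genes were higher in the Itgam cells (0.243%) and 5 lower (0.173%), Itgam and Cd27 themselves included. The higher ones were Gzma, Ccl4, Cma1, Fasl, the linker histone Hist1h1c and Zeb2, a transcription factor of terminal maturation; the lower ones were Emb, the cytokine Mif, Dgat1, an enzyme of triglyceride synthesis, and Fbl, which modifies ribosomal RNA.

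Gzma and Gzmb differed more between the 2 sets at day 14 than at day 3. Gzma was at 9586, 10985 and 13568 CPM in Itgam cells at days 3, 7 and 14, and at 6266, 5856 and 3576 CPM in Cd27 cells, with ratios of 1.53 (1.43 to 1.64), 1.88 (1.79 to 1.96) and 3.79 (3.52 to 4.10). Gzmb was at 2520, 2610 and 2469 CPM in Itgam cells and at 1775, 925 and 433 CPM in Cd27 cells, with ratios of 1.42 (1.25 to 1.62), 2.82 (2.56 to 3.11) and 5.70 (4.65 to 7.02). Both genes varied between cells by more than counting gives, as above, and that spread is not in these intervals. Whether the sets differed more at day 14 beyond it was not tested. In Cd27 cells Gzmb was lowest at day 14, while in Itgam cells its 3 levels lay close together. Prf1 was at 1361, 1332 and 1820 CPM in Itgam cells and at 983, 801 and 595 CPM in Cd27 cells. Ccl4 was 2.21, 3.47 and 2.59 times as high in Itgam cells. Ccl3, not among the genes that passed on all 3 days, was at 749.9, 1244 and 2162 CPM in Itgam cells and at 611, 186 and 360.0 CPM in Cd27 cells, with ratios of 1.23 (0.965 to 1.55), 6.70 (5.63 to 7.996) and 6.00 (4.81 to 7.54). Emb, an adhesion protein of the immunoglobulin family, was at 309, 338 and 265 CPM in Itgam cells and at 534, 767 and 601 CPM in Cd27 cells.

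Itgam is also a myeloid gene, and myeloid RNA moved with the split on 2 days. The 9 myeloid genes summed to 1971, 457 and 145 CPM in Itgam cells and to 228, 172 and 314 CPM in Cd27 cells at days 3, 7 and 14. Among cells with under 2 such UMIs (17, 37 and 21 against 60, 138 and 33) the ratio of Gzma was 2.01, 1.83 and 3.29, that of Gzmb 1.94, 2.68 and 5.83 and that of Prf1 1.66, 1.66 and 2.60. Zeb2 at day 3 was lost there, at 1.08 (0.320 to 2.93), and Ctla2a, lower in Itgam cells of day 3 at 0.733, was at 1.17 (0.947 to 1.44).

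**Figure D5:**
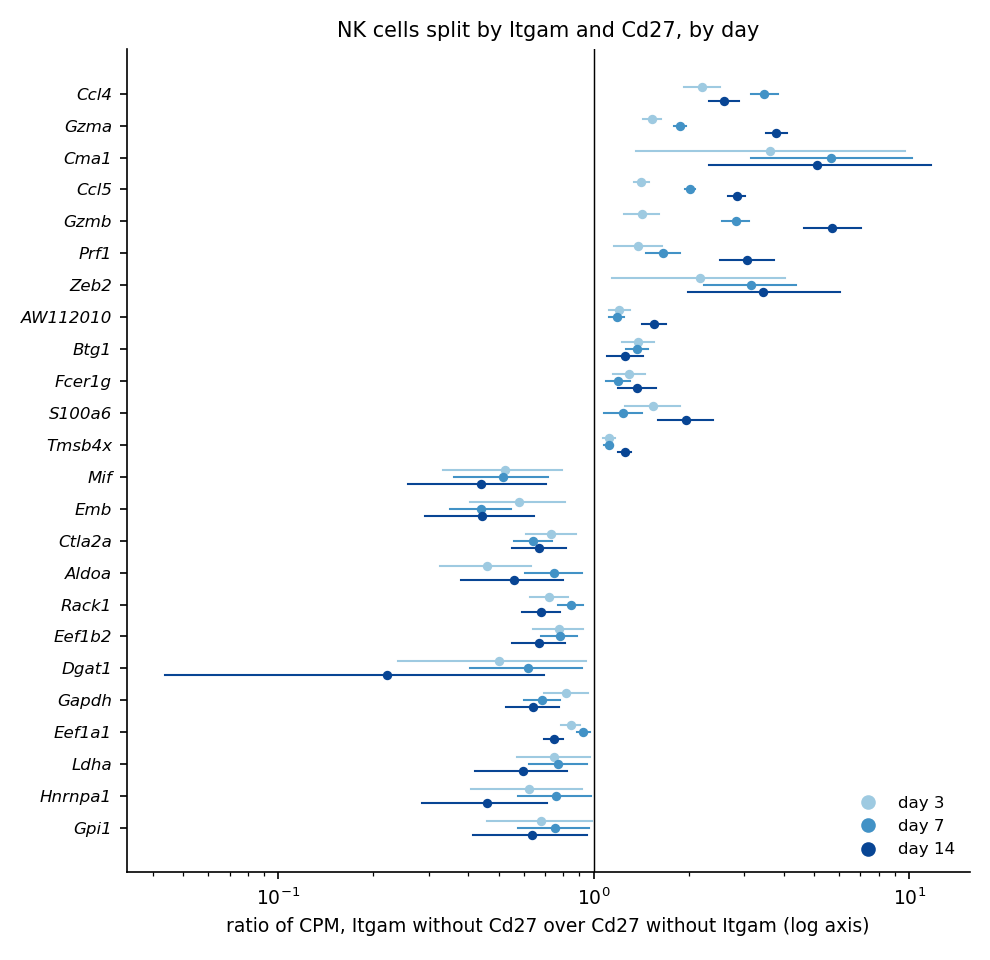
Ratio of CPM in NK cells with Itgam and no Cd27 over NK cells with Cd27 and no Itgam (log axis) at days 3, 7 and 14, with exact 95% intervals, for the 12 highest and 12 lowest genes. Gzmb lies at 1.42, 2.82 and 5.70 and Gzma at 1.53, 1.88 and 3.79, while Mif and Emb lie below 1 on each day.

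NK cells with at least 5 Gzmc UMIs, left out by the rule, were few (6, 32 and 18 cells) and deeper, with medians of 7506, 15188.5 and 19035 UMIs. At least 2-fold in all 3 libraries, 16 of 5077 genes were higher in the NK cells with little Gzmc (0.315%) and 21 lower (0.414%). The rule used Gzmc, so this is a description of 2 sides of a threshold. Among the higher ones, Klf2, a factor of naive and recirculating lymphocytes, was at 948, 688 and 964 CPM in NK cells with little Gzmc and at 344, 61.6 and 63.8 CPM in those with more, and Ccl5 was at 10747, 8952 and 9786 CPM against 4496, 852 and 449 CPM. Klra8 was at 557, 469 and 568 CPM against 20.3, 206 and 186 CPM. At day 3 the 6 cells with more Gzmc held only 49374 UMIs in all, so a low level such as 20.3 CPM there rests on very few UMIs. Among the lower ones, Gapdh, a glycolytic enzyme, was at 1675, 1376 and 1416 CPM against 3443, 3388 and 3222 CPM, and Thy1, a lymphocyte surface protein, at 178, 152 and 133 CPM against 506, 519 and 294 CPM.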

How the data were processed

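Single-cell RNA libraries of CD45+ tumour cells, 1 for each of 3 days, were deposited by the authors as UMI count matrices. The submitters' processing notes name Cell Ranger 4.0.0 and mm10. Which gene annotation was counted, and whether doublets had been taken out, is not given in the sources used here. Counts were used unnormalized. Depth was 33096709, 29547433 and 35742070 UMIs over 3656, 3038 and 3549 barcodes at days 3, 7 and 14. The members and the gene lists were chosen with earlier results of these data known.

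Barcodes with at least 1500 UMIs and under 10% mitochondrial UMIs numbered 2719, 2577 and 2843. UMIs of each cell set were summed per library and divided by their total (CPM). Ratios have exact conditional binomial intervals, shares exact Clopper-Pearson intervals, levels exact Poisson intervals and ratios of shares Katz intervals, all at 95% and covering counting error only. A gene needed 20 UMIs over the sums compared. Between days it was counted at 1.5-fold with an interval without 1; between cell sets at 2-fold (1.5-fold for the Itgam and Cd27 split) in all 3 libraries. With 1 library a day no test was made. A sum of 0 was set to 3 counts in ratios.

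Genes named are, for each pair of days, the 8 with the farthest interval bound nearest 1 in each direction, the 12 in each direction by the least favourable of the 3 libraries' bounds between cell sets (both among genes with at least 100 UMIs), the markers, and from each list with at least 50 NK UMIs up to 6 members by size and 4 by abundance. Mitochondrial and ribosomal genes, receptor segments and unnamed gene models were left out of the ranks. Trbc1, Trbc2, Trac, Itgam, Klrc1, Lag3, Havcr2, Tbx21, Fasl in the split, Dgat1, Fbl, Malat1, Actb, Tmsb4x and Ccl3 in the split were named after their values were seen. Listed genes whose symbols were not found were not used, among them Mx1 and Ddit3.

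Doublets were kept. Scrublet in scanpy 1.11.5 called 3, 11 and 3 barcodes by its own threshold, too few to count as working, so an alternative removed the 59, 53 and 65 with the highest scores. TMM factors came from edgeR 4.0.16. Thinning drew 1500 UMIs from each cell without replacement. Python 3.11.15, numpy 2.4.6, scipy 1.17.1, pandas 2.3.3 and matplotlib 3.10.9 were used. Only the code for ratios of CPM was tested on simulated data, with counts drawn without spread between cells.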

Additional observations from a re-analysis of the deposited data

Results flagged for a closer look

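For 6 genes the ratio between days lay beyond 1.5-fold one way in NK cells and beyond it the other way in CD8 T cells; with 1 library a day the difference between the cell types was not tested. For day 14 over day 7, the chemokine Cxcl10 had a ratio of 0.1379 in NK cells and 1.655 in CD8 T cells; 131 of its 226 NK UMIs of day 7 were in 1 cell. Krt83, a keratin, had ratios of 2.297 in NK cells and 0.3433 in CD8 T cells, and the interferon-induced nuclease Isg20 of 2.007 and 0.6342. The angiogenic factor Vegfa had ratios of 0.5374 in NK cells and 1.993 in CD8 T cells. The macrophage lysozyme Lyz2 had ratios of 0.5964 in NK cells and 3.101 in CD8 T cells. For day 14 over day 3, the chemokine Ccl3 had ratios of 1.817 in NK cells and 0.4519 in CD8 T cells, and Vegfa of 0.5257 and 1.715. All these CD8 T ratios are of the main gate, and none was taken in the stricter CD8 T cells. For Ccl3 the direction of NK over CD8 T cells at days 3 and 7 turned with the stricter gate, as above, so its opposite movement may not hold there. Lyz2 is a gene of macrophages, and a Lyz2 UMI was present in 24.4% of NK cells and 47.6% of CD8 T cells of day 14; its part in the other ratios was not tested.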

How the results depend on the processing

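No paired analysis was possible because each day is 1 library of pooled mice. The cause of no shift below was tested. Of 9464 values of named genes under the alternatives, 9106 stayed within their counting interval, 347 moved and 11 changed sign. The alternatives that change only the UMI minimum of a gene cannot alter these values. Their values are counted among those that stayed, so that count overstates how stable the values were.

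The NK share was highest at day 7 under every alternative run. With 3 receptor UMIs it was 5.70% at day 3. Of NK and T cells it was 18.1%, 25.6% and 10.9% at days 3, 7 and 14, with ratios of 1.42 for day 7 over day 3 and 0.4246 for day 14 over day 7. Chosen after seeing the data, no UMI of Cd3g, Trac, Cd8a or Cd4 gave 5.66%, 10.1% and 3.73%, and under 2 myeloid UMIs gave 5.002%, 10.4% and 3.27%. With Trbc1 and Trbc2 also at 0 it was 0.147%, 0.194% and 0.105%, with ratios of 1.32 and 0.544; this left 4, 5 and 3 cells, so gene and list values were not run for it.

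With at least 100 UMIs a gene, which tests fewer genes, counts were 106 higher and 125 lower for day 7 over day 3, 44 and 198 for day 14 over day 7, 26 and 161 for day 14 over day 3, and 280 higher for NK over CD8 T cells. Without a Gzmc limit 248 were higher for day 14 over day 7 and 302 for day 14 over day 3. Without each gene's top cell 86 were higher for day 14 over day 7. For day 14 over day 3, TMM gave 216 higher, and CPM outside mitochondrial and ribosomal genes 212 higher and 269 lower. Without myeloid RNA 249 were lower for day 14 over day 7 and 264 for day 14 over day 3. The stricter CD8 T cells gave 251 higher and 210 lower.

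List medians (log2) without a Gzmc limit were, for day 7 over day 3, 0.55 for type 1 innate lymphoid genes, 0.62 for cell cycle and -0.12 for hypoxia; for day 14 over day 7, 1.285 for cell cycle; and for day 14 over day 3, -0.094 for late NK stage, -0.39 for chemokine receptors, 1.77 for cell cycle and -0.03 for hypoxia. Without myeloid RNA they were 0.24 for cytotoxic machinery for day 7 over day 3; -0.38 for early NK stage, 0.089 for type 1 innate lymphoid genes, -0.085 for cell cycle and -0.071 for interferon-gamma for day 14 over day 7; and -0.21 for interferon-gamma for day 14 over day 3. Cell cycle was -0.15 without cycling cells for day 7 over day 3 and -0.21 without top cells for day 14 over day 7.

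Sign changes (log2) were few and mostly in cycling genes. Ube2c was 1.15 without cycling cells and 1.94 without myeloid RNA for day 7 over day 3, and 1.26 without a Gzmc limit, 0.32 without cycling cells and 1.44 without myeloid RNA for day 14 over day 3. Top2a was 0.42 without a Gzmc limit and 0.38 without cycling cells for day 7 over day 3. Stmn1 was -0.27 without its top cell and -0.44 without cycling cells for day 14 over day 7. Bcl2a1b was 0.34 for day 14 over day 3 and Ccl1 1.22 for NK over CD8 T cells at day 14, both without a Gzmc limit.

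Shares of cells with a UMI rose with depth. Without thinning and at 3000 UMIs, Ifng was at 65.6% and 52.8% at day 3, 35.1% and 24.9% at day 7, and 59.5% and 46.7% at day 14. Cd27 was at 57.4% and 45.4%, 66.3% and 49.9%, and 46.6% and 25.8%. Ccl3 without thinning was at 43.7%, 33.7% and 47.3%, and at 3000 UMIs at 24.6% at day 7 and 40.0% at day 14.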
